A study of Homo sapiens with 24 samples.

Results

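The comparison described here is that of LNCaP cells 48 h after transfection with si-A1, an siRNA against the long non-coding RNA TAPIR-1, with cells transfected with a scrambled control siRNA (si-SCRL) and cultured for the same 48 h. Its members were chosen by the sample labels alone and are 8 of the 24 arrays of the series, 4 of si-A1 and 4 of si-SCRL. LNCaP is an established androgen-sensitive prostate cancer cell line derived from a lymph node metastasis. TAPIR-1 and TAPIR-2 lie at the same locus on chromosome 2, where the labels place TAPIR-1 at chr2:1550437-1623885 (GRCh37.p13) and TAPIR-2 at chr2:1620510-1625419 (GRCh38.p12). All groups are LNCaP cells in medium with serum that received a Stealth siRNA duplex by electroporation, so the controls carry the pulse and a duplex as well. The other groups used for comparison are si-A2, a duplex against TAPIR-2, at 48 h (3 arrays, as replicate 2 was dim and was left out of normalization and fit) and si-A1 and si-SCRL at 24 h (4 arrays each). A single duplex stands for the knockdown of TAPIR-1, in a single cell line, so the effect of the knockdown and of that duplex cannot be told apart.

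p53 is a transcription factor that accumulates in stressed cells and activates genes of arrest, repair and death. One of these is CDKN1A, which encodes the cyclin-dependent kinase inhibitor p21. With the kinases inhibited, the pocket proteins RB1, RBL1 and RBL2 stay unphosphorylated, RBL1 and RBL2 assemble with MuvB and E2F proteins into the DREAM complex, and DREAM represses genes of DNA replication through E2F sites and genes of mitosis through CHR elements in their promoters. Replication-dependent histone genes are transcribed mostly in S phase. In a culture, the RNA of all these genes therefore follows how many cells are cycling as well as how much each cell transcribes.

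No probe on the 48 h array carried an accession of TAPIR-1, so the knockdown itself was not checked on these arrays. TAPIR-2 had 2 probes. Probe A_19_P00318461 measured log2 levels of 4.70, 5.41, 4.02 and 4.44 on the si-SCRL arrays (replicates 1 to 4, the order used throughout) and 5.46, 5.55, 4.36 and 3.93 on the si-A1 arrays. The groups overlapped, with means of 4.64 ± 0.58 and 4.82 ± 0.81 (SD, n = 4 each), a difference of 0.18 and an exact two-sided permutation p of 0.8, where 4 against 4 arrays can give no p below 0.0286. The sign of this difference turned with single arrays left out (−0.0612 to 0.480). Probe A_22_P00019831 was well above background on none of these arrays and differed by −0.776 (exact two-sided permutation p = 0.171, n = 4 each).

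Levels are log2 of the scanner's processed intensity after quantile normalization, in arbitrary units that allow no comparison between probes, so a difference of 1 between groups is a doubling. The 11 arrays in the fit had median processed intensities of 20.4 to 32.3 against 13.95 on the dim array, and 60.3% to 66.5% of spots well above background by the scanner's own rating. All 12 luminal and LNCaP markers were well above background, with a mean level over the list of 10.05 to 10.79 on the si-SCRL and 9.84 to 10.23 on the si-A1 arrays. Markers of other cells were mixed. KRT5 and TP63 of basal epithelium, COL1A1, COL1A2, COL3A1 and LUM of fibroblasts and TEK of endothelium were at background by that rating on all si-SCRL and si-A1 arrays. In contrast, 3 of 5 markers of basal epithelium, 3 of 5 of endothelium and 2 of 6 of fibroblasts were well above it on all si-SCRL arrays. KRT14, ITGB4, VWF, KDR, PDGFRB and DCN were among these. No marker of those cells or of leukocytes passed the test. Their list means were 4.66 to 5.08 and 4.49 to 5.0 for basal epithelium, 2.36 to 2.63 and 2.52 to 2.63 for fibroblasts, 5.61 to 5.98 and 5.82 to 6.29 for endothelium, and 6.99 to 7.85 and 7.30 to 7.79 for leukocytes, where all 4 markers on the array gave signal (si-SCRL first). Replicates 1 and 2 were on the first slide and replicates 3 and 4 on the second. On both slides si-SCRL, si-A1 and si-A2 had a fixed column each, so siRNA and position on the slide cannot be told apart.

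At 48 h, at the thresholds used, the decreases outnumbered the increases and were larger. Genes of mitosis, DNA replication and the replication-dependent histones fell, led by ANLN, SPC25, KIF15 and SKA1, while a smaller set rose, led by LRRN1, ACTA2, ZMAT3 and PTN and including CDKN1A. Of 17473 genes tested with limma, 438 were called higher (2.51%) and 1101 lower (6.3%) at a Benjamini-Hochberg adjusted p under 0.01 and an absolute log2 change of at least 0.5. The called log2 changes ran from −5.14 to 3.19, with a median of 0.96 among the higher and −1.22 among the lower genes against 0.11 over all tested. All 1539 called genes had the same sign on both slides, which selection by this fit favours, so that it lends the calls no further weight. For 1383 of them no si-A1 array overlapped the si-SCRL arrays, where 16.3% of all tested genes did not overlap. The fit of all 3 siRNA groups shares its estimate of the spread, and its counts depend on it. With the replicate number as a block in place of the slide, 145 genes were called higher and 703 lower, leaving out single arrays gave 100 to 470 and 650 to 1030, and with normexp background correction the counts were 691 and 756, so that 47.8% of calls were higher in place of 28.5%. The order of the counts turned at an adjusted p under 0.05, with 1919 higher and 1774 lower, and with an intensity trend in the variance, with 1592 and 1514.

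Genes with a RefSeq name made up 87.5% of the called lower genes, 52.5% of the called higher genes and 48.8% of those tested. The called lower genes also had a higher median control level, 7.35 against 5.83 for the called higher and 3.78 for all tested genes. Genes of the 4 lists described next (mitosis, histones, S phase, and Fanconi anemia and recombination repair) were 158 of the tested genes (0.904%). They were 143 of the 1101 called lower (13%), 41 of the 100 largest decreases and 0 of the 438 called higher. In 132 called genes one whole group lay at background by the scanner's rating, and for those a lower bound of the change is given where a bound could be set. ITGAL, at background in both groups, is an exception. Its values are given in the test of times and are no measured fold.

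Mitotic genes fell together. Of 53 genes of a G2/M list on the array, 46 were called lower and 0 higher in a fit without filters on low values, in which 2.71% of 47745 genes were called lower and 1.35% higher. All 53 differences were negative, with a median of −2.43 against 0.03 over all genes, and the groups overlapped for 2 of them. ANLN, which encodes the cytokinetic ring protein anillin, measured 7.93, 7.50, 7.65 and 8.12 in si-SCRL and 2.16, 3.05, 1.6 and 3.81 in si-A1. Fewer cycling cells and less RNA of these genes per cell cannot be told apart in such bulk samples. Every si-A1 array was far below every control array, and the difference was −5.14 ± 0.46 (SE, limma adjusted p = 0.000121), the largest decrease of a RefSeq-named gene, although ANLN was well above background on only 1 si-A1 array. With si-A2 the 3 arrays measured 6.61, 5.64 and 6.41, between both other groups.

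DLGAP5, a microtubule-binding protein of the spindle, measured 7.80, 7.53, 7.12 and 7.72 in si-SCRL and 3.06, 4.43, 3.09 and 3.37 in si-A1. The groups did not overlap, and the difference was −4.05 ± 0.32 (SE, limma adjusted p = 8.62e-05). KIF20A, a kinesin of cytokinesis, fell by 3.29 on the log2 scale from 9.22, 9.06, 8.80 and 8.89 to 5.52, 6.0, 5.33 and 5.96. AURKA, the Aurora kinase of spindle poles, measured 9.07, 8.89, 8.94 and 8.90 in si-SCRL and 5.97, 6.38, 5.83 and 6.24 in si-A1, a difference of −2.84. BIRC5, which encodes survivin, a member of the chromosomal passenger complex and inhibitor of apoptosis, measured 9.43, 9.52, 9.44 and 10.07 in si-SCRL and 5.42, 6.21, 5.56 and 6.40 in si-A1. Its difference of −3.72 (limma adjusted p = 8.4e-05) was the one decrease called in a list of 26 BCL2 family and death receptor genes, where TNFRSF10A, a TRAIL receptor, rose by 0.71 (0.457 with normexp correction, a lost call).

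Several kinetochore and spindle genes fell out of the range of the array. SPC25, a subunit of the kinetochore NDC80 complex, measured 6.69, 6.39, 6.57 and 7.03 in si-SCRL and 1.06, 3.04, 1.30 and 1.66 in si-A1, all at background there, and was at least 11.1-fold lower (limma adjusted p = 0.000171). KIF15, a spindle kinesin, was at least 7.78-fold lower (adjusted p = 7.16e-05), SKA1, which couples kinetochores to microtubules, at least 7.32-fold lower (6.07e-05) and KNL1, a kinetochore scaffold, at least 7.79-fold lower (0.000186). Such bounds set the mean of the bright group against the dimmest signal still rated well above background on each array of the dim group. ESCO2, a cohesin acetyltransferase of S phase, fell by 4.18 on the log2 scale (adjusted p = 0.000672), and CCNB2, a mitotic cyclin, by 3.54, from 7.76, 7.33, 6.75 and 7.53 to 3.98, 3.91, 3.36 and 3.99.

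The probes of 3 mitotic genes disagreed. CCNB1, the cyclin of entry into mitosis, measured 11.93, 12.04, 11.37 and 11.90 in si-SCRL and 13.07, 12.70, 13.04 and 11.74 in si-A1 with its brightest probe. In a fit of all probes this difference of 0.83 did not pass the test (limma adjusted p = 0.299), while the other CCNB1 probe differed by −2.75 (adjusted p = 0.000401). MKI67, the proliferation marker Ki-67, differed by −1.05 (adjusted p = 0.00922) with its brightest probe, a call lost with the replicate block and in the fit without filters, and by −3.11 and −3.75 with its other probes. KIF23, a kinesin of the midzone, fell by 1.05 with the brightest probe and differed by −2.62 with another. The members of the mitotic list not called lower with their brightest probes were MKI67, RANGAP1, CDCA8, CDCA3, AURKB, JPT1 and ANP32E. The count of mitotic genes called lower was 40 with the replicate block and 38 to 43 with single arrays left out, and normexp correction, which adds an offset to dim signals, reduced the median to −1.01.

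**Figure D1:**
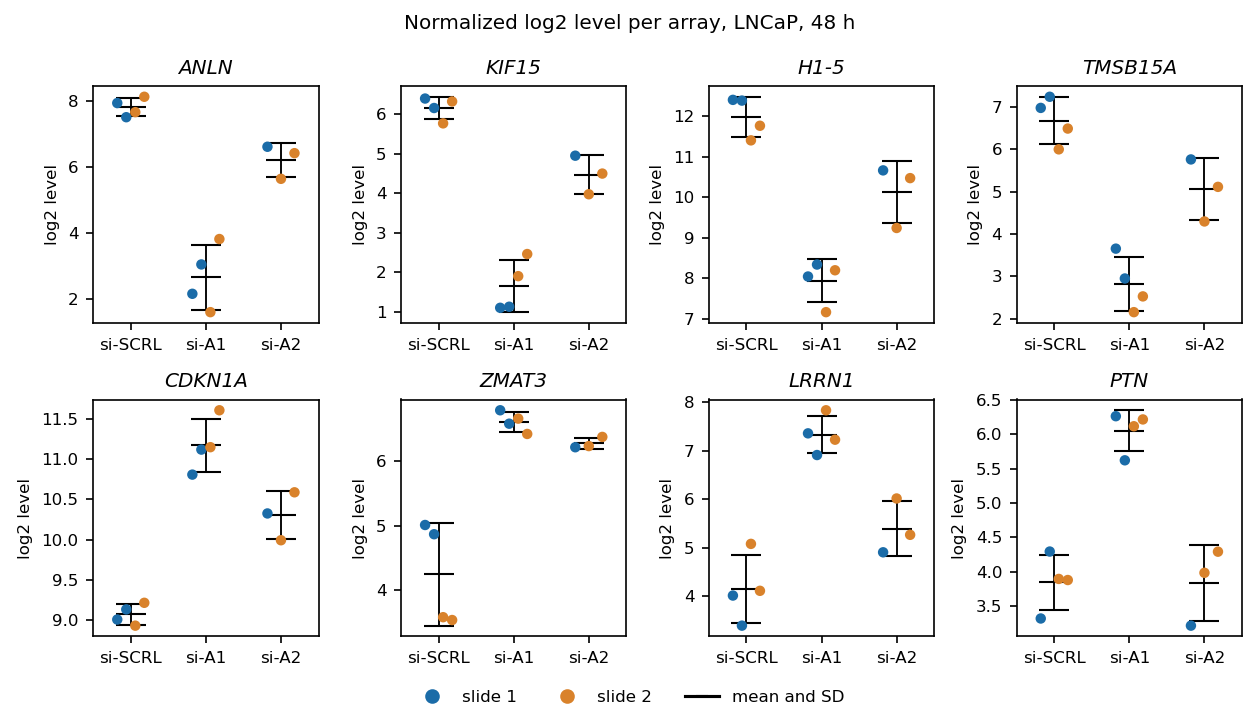
Normalized log2 level (vertical axes) on each si-SCRL, si-A1 and si-A2 array at 48 h for 4 genes called lower (ANLN, KIF15, H1-5, TMSB15A) and 4 called higher (CDKN1A, ZMAT3, LRRN1, PTN), with points coloured by slide and bars for the mean and SD. The si-A1 arrays lie apart from the si-SCRL arrays in every gene shown, as for ANLN (means 7.80 in si-SCRL and 2.66 in si-A1) and LRRN1 (4.14 and 7.34).

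Replication-dependent histone genes of the clusters on chromosomes 6 and 1 fell almost without exception. Of 52 on the array, 48 were called lower and 0 higher (2.71% and 1.35% over all genes), and 51 differences were negative, with a median of −2.40. H1-5, a linker histone, measured 12.40, 12.38, 11.40 and 11.76 in si-SCRL and 8.04, 8.34, 7.16 and 8.2 in si-A1, and 10.66, 9.24 and 10.47 with si-A2. Its difference of −4.05 ± 0.30 (SE, limma adjusted p = 7.16e-05) was −4.20 on the first slide and −3.90 on the second. H2AC11, an H2A histone, measured 12.33, 12.29, 11.96 and 12.18 in si-SCRL and 8.19, 8.61, 7.79 and 8.56 in si-A1 (−3.90 ± 0.25, adjusted p = 6.07e-05). H2AC16 fell by 3.74 and H3C2 by 3.4 on the log2 scale. H3C15, a histone gene that is not in the counted list, fell by 3.87 (adjusted p = 0.000607). Many of these genes are near-identical in sequence, so that a probe may bind RNA of several of them and the single values are uncertain. H4C11, H2BC15, H1-1 (0.12) and H2BC6 were not called. In this list 47 members were called lower with the replicate block and 47 to 48 with single arrays left out.

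Genes of S phase fell as well. Of 43 in the list, 36 were called lower and 0 higher (2.71% and 1.35% over all genes). All 43 differences were negative and the median was −1.81 (33 called with the replicate block, and a median of −0.965 with normexp correction). RRM2, the regulated subunit of ribonucleotide reductase, measured 8.96, 9.13, 8.94 and 9.46 in si-SCRL and 5.22, 5.6, 5.09 and 5.54 in si-A1. The si-A1 arrays were all below the controls, by 3.76 ± 0.26 on the log2 scale (SE, limma adjusted p = 6.07e-05). CENPU, a protein of the inner kinetochore, measured 8.04, 7.77, 7.32 and 7.95 in si-SCRL and 4.25, 4.48, 3.21 and 3.79 in si-A1 (−3.84). RAD51AP1, a protein of recombination repair, fell by 3.39 and DTL, an adaptor of a ubiquitin ligase that acts on replicating chromatin, by 3.37. CDCA7, POLD3, RRM1, UBR7, CHAF1B and E2F8 were among the members not called.

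The promoters of these genes are shown because the letters through which E2F proteins, NF-Y and the MuvB core are known to bind can be read in them. For each of the 3 lists, the 2 genes of largest decrease with an entry in the RefSeq table (GRCh38.p14) are printed from 150 bases before to 30 after the transcription start, on the gene's strand, 5′ to 3′. Capitals mark CHR letters (TTTGAA or TTCGAA), the CCAAT box, E2F letters (TTTCCCGC, TTTGGCGC, TTTCGCGC or TTTGCCGC), all of these searched on both strands, and TATAAA on the gene's strand.
ANLN, chr7:36389712-36389891, plus strand: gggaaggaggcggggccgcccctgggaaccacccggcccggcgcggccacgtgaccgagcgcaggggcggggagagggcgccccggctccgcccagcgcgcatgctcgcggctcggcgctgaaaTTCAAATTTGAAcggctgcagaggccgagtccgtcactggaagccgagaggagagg
DLGAP5, chr14:55191556-55191735, minus strand: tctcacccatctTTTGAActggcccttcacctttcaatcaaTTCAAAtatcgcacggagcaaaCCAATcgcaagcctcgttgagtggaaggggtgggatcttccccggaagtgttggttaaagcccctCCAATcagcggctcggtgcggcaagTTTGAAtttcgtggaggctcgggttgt
H1-5, chr6:27867559-27867738, minus strand: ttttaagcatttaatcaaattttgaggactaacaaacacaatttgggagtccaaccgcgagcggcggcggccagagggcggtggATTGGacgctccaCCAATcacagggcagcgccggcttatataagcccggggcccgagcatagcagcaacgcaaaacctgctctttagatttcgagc
H2AC11, chr6:27132893-27133072, plus strand: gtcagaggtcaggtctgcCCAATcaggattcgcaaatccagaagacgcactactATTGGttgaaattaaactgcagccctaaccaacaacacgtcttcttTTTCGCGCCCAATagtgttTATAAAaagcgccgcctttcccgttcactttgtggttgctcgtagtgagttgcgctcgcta
CENPU, chr4:184734067-184734246, minus strand: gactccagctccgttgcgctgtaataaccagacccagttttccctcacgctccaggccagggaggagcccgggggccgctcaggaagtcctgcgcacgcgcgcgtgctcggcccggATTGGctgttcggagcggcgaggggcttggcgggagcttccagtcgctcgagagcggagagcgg
RRM2, chr2:10122589-10122768, plus strand: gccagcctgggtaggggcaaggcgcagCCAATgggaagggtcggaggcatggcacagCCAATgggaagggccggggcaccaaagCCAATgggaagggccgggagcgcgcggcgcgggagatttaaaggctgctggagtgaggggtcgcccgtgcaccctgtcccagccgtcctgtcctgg
ANLN held CHR letters on both strands, which adjoin each other, 26 and 20 bases before the start, while DLGAP5 held 3 CHR and 2 CCAAT matches. H1-5 held CCAAT only, H2AC11 held CCAAT 3 times, TATAAA, and E2F letters that adjoin a CCAAT, CENPU held 1 CCAAT and RRM2 held 3. In the whole window of 250 bases before to 50 after the start, CHR letters were in 33 of 45 mitotic genes with an entry (73.3%), 18 of 48 histone genes (37.5%) and 3 of 32 S phase genes (9.38%), against 16.6% of all 27305 promoters. E2F letters were in 3, 14 (29.2%) and 16 (50%) of them in the same order, against 3.33%. CCAAT was in 31 (68.9%), 42 (87.5%) and 23 (71.9%), against 35.7%, and TATAAA in 26 of the 48 histone promoters (54.2%) against 7.71%. These are matches of letters, which do not show binding.

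Among 26 genes of the Fanconi anemia pathway and recombination repair, 16 were called lower and 0 higher (2.71% and 1.35% over all genes), with a median of −1.08 (−0.405 with normexp correction). BRCA1 measured 5.13, 5.44, 5.27 and 5.42 in si-SCRL and 1.25, 1.6, 1.43 and 2.15 in si-A1, and 4.41, 3.67 and 4.50 with si-A2. All si-A1 arrays were at background, and BRCA1 was at least 4.33-fold lower (limma adjusted p = 6.07e-05). BRIP1, a helicase that binds BRCA1, was at least 2.75-fold lower. FANCI, which is ubiquitinated at stalled forks, fell by 3.07 on the log2 scale, from 8.93, 8.69, 8.38 and 8.67 to 5.51, 5.90, 5.46 and 5.50. CHR letters were in 3, E2F letters in 4 and CCAAT in 8 of the 23 promoters of this list with an entry.

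Among the regulators of these genes, the activators E2F1, E2F2, FOXM1 and MYBL2 fell, while most pocket proteins and MuvB subunits did not pass the test. Of 20 E2F factors, pocket proteins and DREAM or MYB-MuvB subunits, 7 were called lower and 0 higher (2.71% and 1.35% over all genes), with a median of −0.32. E2F1, an activator of S phase genes, measured 8.33, 8.01, 8.2 and 8.76 in si-SCRL and 5.28, 5.68, 5.43 and 6.15 in si-A1 (−2.69 ± 0.25, SE, limma adjusted p = 0.000161). E2F2 was at least 6.20-fold lower, and RB1 at least 1.01-fold lower, with a probe well above background on 1 si-SCRL and no si-A1 array and a call that was lost with normexp correction (−0.17). FOXM1, the forkhead activator of mitotic genes, measured 8.94, 8.65, 8.10 and 8.60 in si-SCRL and 5.82, 6.37, 5.89 and 6.28 in si-A1 (−2.48), and MYBL2, which joins MuvB in S phase, fell by 1.13. TFDP1 (−0.65), the partner of E2F proteins, and LIN52 (−0.80), a MuvB subunit, were the other calls, whereas RBL1 (−0.47), RBL2 (0.30), E2F4 (0.05), LIN9 (0.56), LIN37 (−0.08) and LIN54 (−0.61) did not pass. None of the arrays of E2F1 or FOXM1 overlapped between the groups.

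Of 18 cyclins, kinases and inhibitors of G1 and S phase, 6 were called lower and 1, CDKN1A, higher, where 2.71% of all genes were called lower and 1.35% higher. CDKN3, a phosphatase that acts on CDK2, fell by 3.14 on the log2 scale, CCNA2 (cyclin A2) by 2.79, CCNE2 (cyclin E2) by 2.74, and CDK2, the kinase they bind, by 2.15. CCNE1, the other cyclin E gene, differed by 0.30 and did not pass the test (limma adjusted p = 0.0579). Of checkpoint genes, CLSPN (claspin) fell by 3.16, CDC25C, the phosphatase that activates CDK1, by 2.43, and CHEK1 by 2.38.

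**Figure D2:**
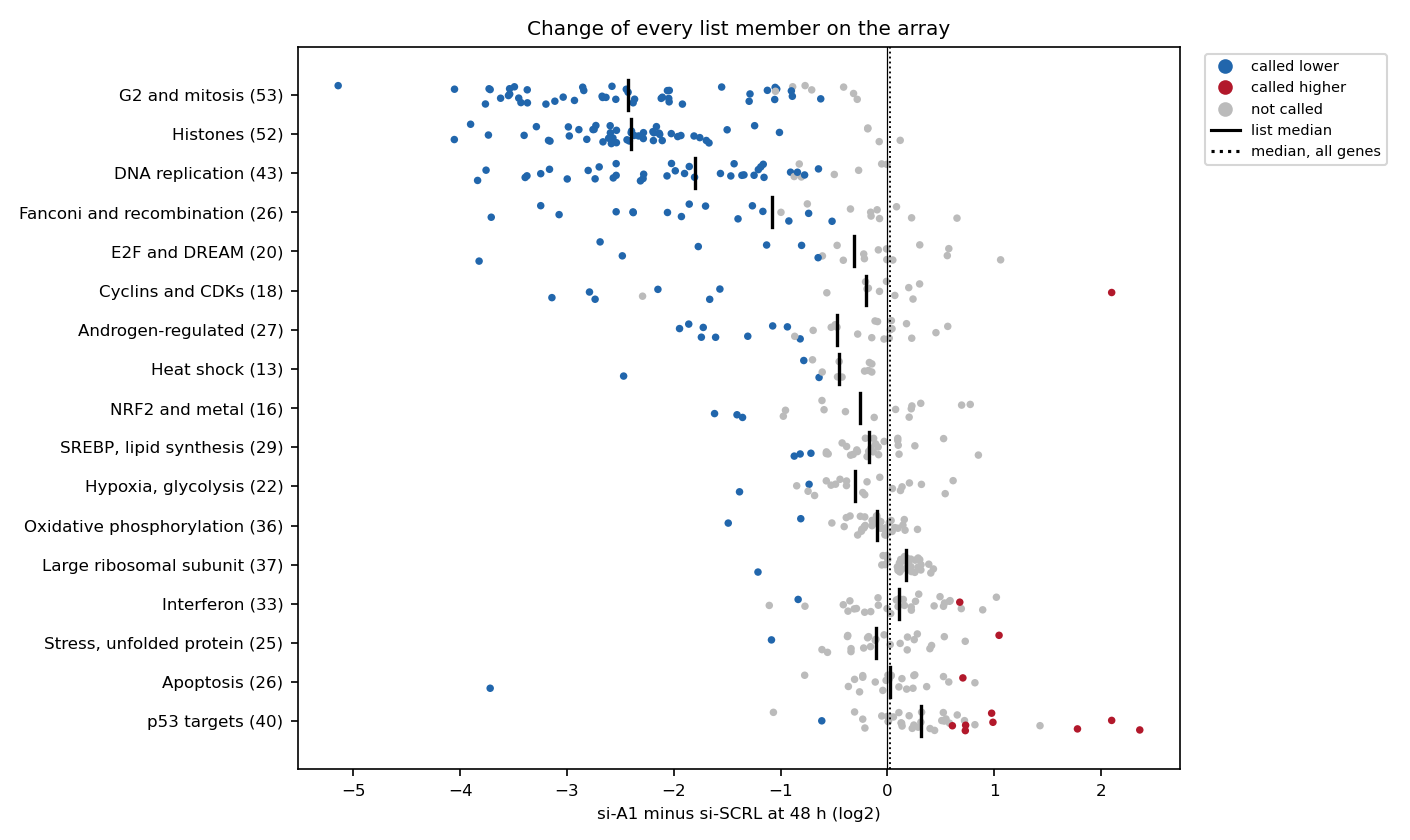
Log2 difference between si-A1 and si-SCRL at 48 h (horizontal axis) for each member of 17 gene lists (rows, with the number on the array), with points coloured by whether the gene was called, a bar at each list's median and a dotted line at the median of all genes. The mitotic (−2.43), histone (−2.40), S phase (−1.81) and repair (−1.08) lists lie lowest, and the list of p53 targets (0.32) lies above 0.

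Targets of p53 moved by less, and a minority passed the test. Of 40 genes that p53 is known to activate, 8 were called higher and 1 lower, 34 differences were positive and the median was 0.32. Over all 47745 genes of the fit without filters, 1.35% were called higher and 2.71% lower, and 25971 differences were positive. CDKN1A (p21, on chromosome 6 at chr6:36676463-36687332, GRCh38.p14) measured 9.01, 9.13, 8.93 and 9.21 in si-SCRL, 10.81, 11.12, 11.15 and 11.61 in si-A1, and 10.33, 9.99 and 10.59 with si-A2. The 3 groups did not overlap, and the si-A1 difference was 2.10 ± 0.20 (SE, limma adjusted p = 0.000167). ZMAT3, an RNA-binding protein, measured 5.01, 4.87, 3.58 and 3.54 in si-SCRL and 6.79, 6.58, 6.66 and 6.42 in si-A1. The si-A1 arrays were close together and the controls split by slide, so that the difference of 2.36 (adjusted p = 0.000557) was 1.75 on the first slide and 2.98 on the second. SPATA18, which acts in mitochondrial quality control, measured 3.48, 3.29, 3.33 and 3.27 in si-SCRL and 4.79, 5.01, 5.26 and 5.43 in si-A1 (1.78, adjusted p = 0.0011), was well above background on 1 control array, and lost its call with normexp correction (0.439).

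GADD45A, a stress-induced growth arrest gene, measured 8.03, 8.12, 8.0 and 8.04 in si-SCRL and 9.04, 8.99, 8.98 and 9.12 in si-A1 (0.99, limma adjusted p = 0.00148), and the groups did not overlap. TP53I3 rose by 0.98, CYFIP2 by 0.73, FDXR by 0.73 and RRM2B, the p53-induced subunit of ribonucleotide reductase, by 0.61. TRIAP1, an inhibitor of apoptosis, differed by −0.61, a call lost with the replicate block, under which 6 members were called higher, and 4 to 7 were with single arrays left out. MDM2 (0.29), the ubiquitin ligase of p53, BAX (0.11), FAS (0.82), PLK2 (1.43) and POLH (−1.07) did not pass the test. CHR letters were in 1 (3.12%), E2F letters in 5 (15.6%) and CCAAT in 14 (43.8%) of the 32 promoters of the list with an entry. Over all promoters the shares were 16.6%, 3.33% and 35.7%, so E2F letters were not confined to the lists that fell.

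**Figure D3:**
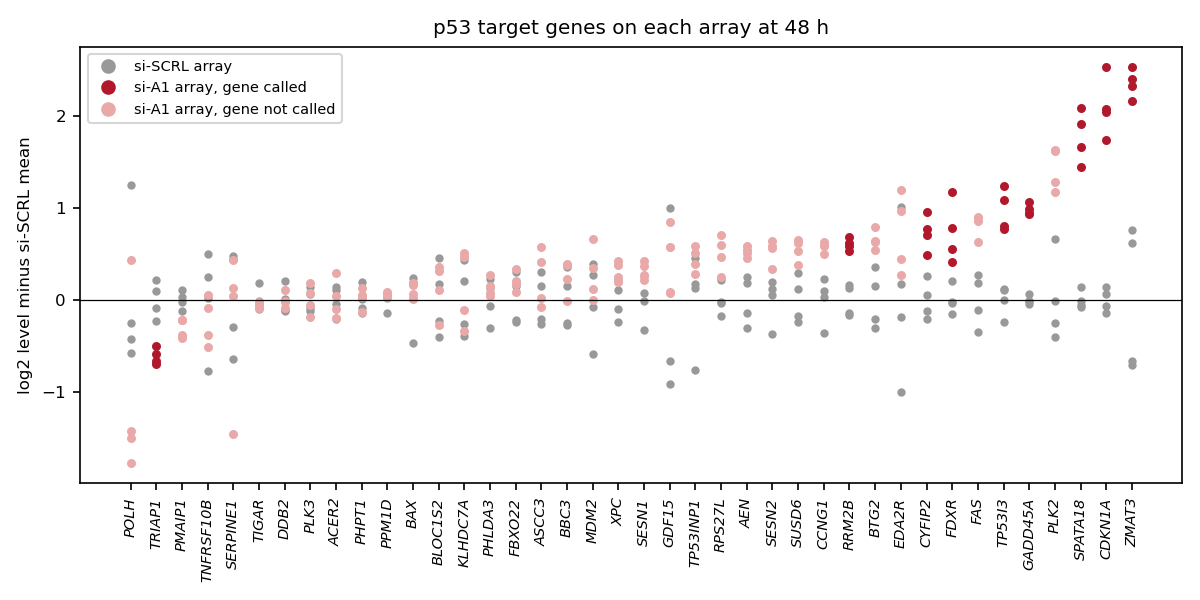
Log2 level minus the si-SCRL mean of each gene (vertical axis) on every si-SCRL and si-A1 array at 48 h for the 40 genes activated by p53, ordered by their mean difference, with darker points for called genes. ZMAT3 (2.36), CDKN1A (2.10) and SPATA18 (1.78) lead, and MDM2 (0.29) and BAX (0.11) are among the genes that were not called.

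The other RefSeq-named genes with the largest increases share no list. LRRN1, a neuronal leucine-rich repeat membrane protein, measured 4.01, 3.39, 5.08 and 4.11 in si-SCRL, 7.36, 6.91, 7.84 and 7.23 in si-A1, and 4.90, 6.01 and 5.26 with si-A2. The si-A1 arrays were above all others, and the difference was 3.19 ± 0.30 (SE, limma adjusted p = 0.000148). PTN, the growth factor pleiotrophin, measured 3.32, 4.29, 3.90 and 3.88 in si-SCRL, 6.26, 5.62, 6.12 and 6.21 in si-A1 and 3.22, 3.98 and 4.29 with si-A2, so that si-A2 and the controls overlapped (si-A1 minus si-SCRL 2.20, adjusted p = 0.000595). ACTA2, smooth muscle actin, measured 2.76, 3.55, 1.06 and 1.06 in si-SCRL and 4.91, 4.78, 4.96 and 4.53 in si-A1. Its difference was 2.68 (adjusted p = 0.0019), with 1.69 on the first slide and 3.68 on the second, where the probe was at the foot of the scale in the controls.

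PTPRR, a receptor-type tyrosine phosphatase, rose by 1.89 (limma adjusted p = 0.00036). FEZ1 was at least 1.84-fold higher (0.00067), CFAP300 at least 1.63-fold (0.00711), PDGFRL at least 1.23-fold (0.000617) and BRDT at least 1.22-fold (0.00109), as none of them was well above background in si-SCRL. SLC30A10, a manganese transporter, was well above background on 2 si-A1 arrays and on no control array, and its bound gave no fold (adjusted p = 0.00388). The calls of CFAP300 with the replicate block and of SLC30A10 in 7 of 11 fits with an array left out were lost. Among the largest decreases outside the lists were ZNF367, a zinc finger protein, with −3.92 (adjusted p = 7.05e-05, while a dim second probe differed by −0.0985) and TMSB15A, a thymosin, with −3.86 (6.07e-05).

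**Figure D4:**
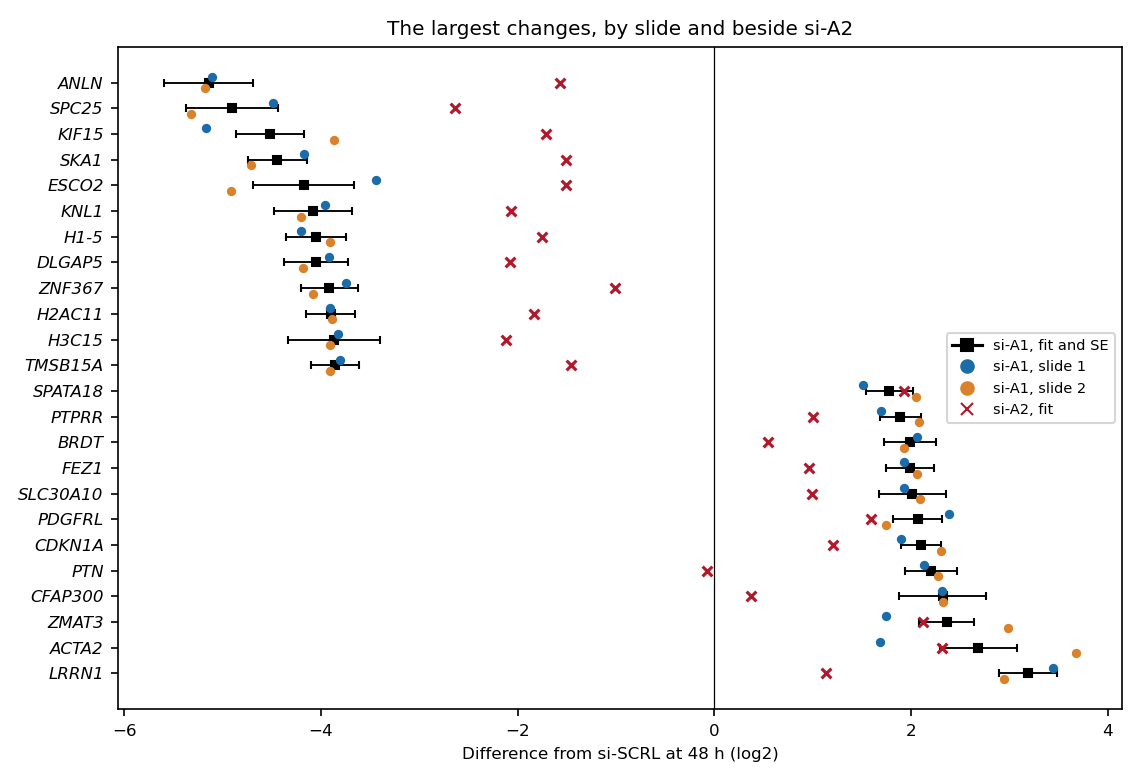
Log2 difference from si-SCRL at 48 h (horizontal axis) for the 12 RefSeq-named genes of largest decrease and the 12 of largest increase, with the fitted si-A1 value and its SE, the si-A1 values of each slide and the fitted si-A2 value. The genes were chosen among those with the same sign on both slides, so agreement of the slides in sign is no result. The slide values were −5.11 and −5.18 for ANLN and 3.44 and 2.94 for LRRN1. Fitted values of genes at background in a group, such as SPC25, are no bounds.

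Androgen-regulated genes, which mark the luminal state of these cells, included genes that fell and genes that did not pass the test. Of 27, 9 were called lower and 0 higher, with a median of −0.47 and 19 negative differences. Over all genes 2.71% were called lower and 1.35% higher, and 21774 of 47745 differences were negative. FKBP5, a co-chaperone of steroid receptors, measured 7.69, 8.28, 8.32 and 8.23 in si-SCRL, 5.96, 6.11, 6.35 and 6.66 in si-A1 and 7.25, 8.34 and 8.55 with si-A2, a si-A1 difference of −1.86 ± 0.22 (SE, limma adjusted p = 0.000493). TRPM8, a cold-sensing channel, fell by 1.95, ACSL3, an acyl-CoA synthetase, by 1.74, CENPN, also a kinetochore gene, by 1.72, ADAM7 by 1.61 and SLC45A3 by 1.31. KLK2, a kallikrein, measured 11.65, 11.67, 12.92 and 12.34 in si-SCRL and 10.65, 10.72, 11.41 and 11.49 in si-A1 (−1.07, adjusted p = 0.00215), with no overlap. KLK3 (prostate-specific antigen, −0.87) and TMPRSS2 (0.04) did not pass, and without the slide term 4 members were called. With the median over the probes of a gene in place of the brightest, 6 were called, and KLK2 (−0.347), CENPN (−1.07) and FKBP5 (−1.5) were not.

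Heat shock chaperones were lower in all 13 members, with a median of −0.45, and 3 passed the test. Of all 47745 genes, 21774 were lower and 2.71% were called lower. HSPA1B, an inducible HSP70, measured 10.18, 10.35, 9.75 and 9.88 in si-SCRL, 7.64, 7.69, 7.41 and 7.53 in si-A1 and 9.95, 9.99 and 9.94 with si-A2. The si-A1 arrays stood apart from both other groups, by −2.47 ± 0.14 from si-SCRL (SE, limma adjusted p = 6.07e-05), while its near-identical copy HSPA1A differed by −0.61 and was not called, so that the values of this pair are uncertain. HSPH1 (−0.78) and DNAJA1 (−0.64) were the other calls, both lost with the replicate block.

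In the metabolic lists few members passed the test. Over all genes of the fit without filters, 2.71% were called lower and 1.35% higher. A single call in a list is therefore a value of that gene and no result about the list. SMS, spermine synthase, measured 11.04, 11.42, 10.84 and 10.89 in si-SCRL and 9.30, 9.35, 9.32 and 9.62 in si-A1 (−1.65, limma adjusted p = 0.000431) and, with OAZ1 (ornithine decarboxylase antizyme, −1.08), was 1 of 2 polyamine genes of 10 called lower. ATP5F1B, the beta subunit of the mitochondrial ATP synthase, measured 12.59, 12.45, 12.84 and 12.51 in si-SCRL and 10.94, 11.07, 11.08 and 11.34 in si-A1 (−1.49, adjusted p = 0.000217), whereas of 36 respiratory subunits only NDUFS3 (−0.81, lost with the replicate block) was also called. RPL7 was the 1 called of 37 proteins of the large ribosomal subunit, with 13.23, 13.34, 12.90 and 12.88 in si-SCRL and 11.78, 12.02, 11.76 and 11.95 in si-A1 (−1.21, adjusted p = 0.00132), while the list had a median of 0.18. Of 16 oxidative stress genes and metallothioneins, MT2A (−1.62), MT1E (−1.41, lost at −0.802 with the median over probes) and MT1G (−1.36, lost with the block) were called lower.

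The counts of this paragraph also stand beside 2.71% of all genes called lower and 1.35% called higher. Of 29 sterol and fatty acid synthesis genes, 3 were called lower, among them FDFT1 (−0.87, lost with the block), and none of the list was called without the slide term. Of 23 lysosome and autophagy genes, LAMP1 (−1.45), MCOLN1 (−0.58) and GLA (−0.50) were called lower, the last 2 lost with the block. ANKRD37 (−1.38) and ENO1 (−0.73, lost with the block) were called lower of 22 genes of hypoxia and glycolysis. Stress and defence lists held few calls, namely DDIT3 (1.05, lost with the block) and MTHFD2 (−1.09) of 25 genes of the integrated stress and unfolded protein responses, and STAT2 (0.68, lost with the block) and USP18 (−0.84) of 33 interferon and double-stranded RNA response genes. Of 17 neuroendocrine markers, TUBB3, a neuronal tubulin, was called higher (1.74, limma adjusted p = 0.00607), as was SCG2, whose probe was not well above background in either group, and both calls were lost with the block, while SYP (−0.53) was not called. No member of the lists of immediate early and NF-kB genes (23), extracellular matrix genes (27) and RNA interference machinery (13) was called, the members of largest test statistic being FOS (0.82) and IL6 (0.87), FN1 (0.96) and LAMA3 (0.25), and TARBP2 (−0.47) and DROSHA (−0.35).

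The response to si-A1 was compared with that to si-A2, the duplex against TAPIR-2, at the same 48 h. Of the genes tested, 282 (1.61%) differed between si-A2 and si-A1, 209 higher and 73 lower with si-A2, a count that fell to 27 with the replicate block and ranged from 0 to 209 with single arrays left out. It was 0 without si-A2 replicate 4 (3709 at an unadjusted limma p under 0.05) and 1 without si-A2 replicate 1. The fit of si-A2 and si-A1 alone called 0 genes, with 3370 genes at an unadjusted limma p under 0.05. HSPA1B differed by 2.43 (limma adjusted p = 0.000994) and, in the fit without filters on low values, was called with the block and with every single array left out (2.37 to 2.55). Also called with the block were ZNF367 (2.91, adjusted p = 0.00246), H1-5 (2.31), ATP5F1B (1.49), RPL7 (1.5, 0.0035) and, lower with si-A2, LRRN1 (−2.05, 0.00868). With single arrays left out, H1-5 and LRRN1 lost this call in 10 of 11 fits, and both lost it without the slide term. ZNF367 lost it in 2 fits and, without the filters, RPL7 in 3 and ATP5F1B in 1. BRCA1 and SKA1 were called too, with no fold given here since all si-A1 arrays were at background, as was TMSB15A (2.39), well above background on 1 si-A1 array, and the calls of these 3 genes were lost with normexp correction. For ANLN (3.57) and PTN (−2.28) the call was lost with the block. FAM107A, an actin-binding stress protein, measured 1.32, 1.19, 3.78 and 3.17 in si-SCRL, 1.53, 1.20, 3.00 and 2.81 in si-A1 and 4.51, 5.69 and 5.86 with si-A2, and was called higher with si-A2 than with si-A1 (adjusted p = 0.00164). It was at background on all si-A1 and 3 of 4 si-SCRL arrays, so no fold is given, and another of its probes had the opposite sign.

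The median differences of the lists from the shared controls were −2.43 with si-A1 and −1.45 with si-A2 for mitotic genes, −2.40 and −1.39 for histones, −1.81 and −0.71 for S phase genes, −1.08 and −0.58 for repair genes and 0.32 and 0.26 for p53 targets. Between the siRNAs, 5 mitotic, 2 histone, 15 S phase and 7 repair genes were called higher with si-A2, where 0.622% of all genes were. GADD45A measured 9.06, 8.93 and 9.32 with si-A2, which overlapped the si-A1 arrays, and ZMAT3 6.21, 6.23 and 6.37, below all si-A1 and above all si-SCRL arrays. MT2A measured 6.09, 5.69 and 5.64 with si-A2, against 5.53, 5.36, 5.76 and 5.78 with si-A1, which overlapped too.

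The effect of si-A1 at 48 h was then tested against that at 24 h, where other cultures, controls and an earlier version of the array were used, so that time and array version cannot be told apart. Of 30126 genes, 54 (0.179%) differed between the effects, 19 upwards and 35 downwards. This count was 34 with the replicate block, 11 without the si-A2 arrays and 8 to 77 with single arrays left out, with the lowest count without si-SCRL replicate 4 of 48 h. Of the mitotic list, 12 genes fell by more at 48 h beyond the threshold and 48 of 53 had the larger decrease there, the median going from −1.17 at 24 h to −2.34. KIF20A went from −1.01 to −3.32 (change −2.31 ± 0.23, SE, limma adjusted p = 0.000287), AURKA from −1.05 to −2.86, DLGAP5 from −1.45 to −3.90 and CDKN3 from −0.78 to −3.16, a change whose call was lost with the block. FOXM1 went from −1.0 to −2.50 and CCNA2 from −1.35 to −2.81.

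Histone (−1.68 and −2.19) and S phase (−1.56 and −1.83) medians were closer to each other at 24 h and 48 h, with 0 and 1 members called for a change. The larger decrease was still at 48 h for 47 of 52 histone genes and 30 of 42 S phase genes, so this trait is not particular to the mitotic list. CDKN1A rose by 0.71 at 24 h and by 2.03 at 48 h (change 1.32, limma adjusted p = 0.00906), and the p53 target median went from 0.10 to 0.34. LRRN1 went from 0.74 to 3.15 (change 2.40, adjusted p = 0.00292). ITGAL, an integrin of leukocytes, differed by −1.33 at 24 h and 1.51 at 48 h (change 2.84, adjusted p = 0.00722), but was not well above background in either group at 48 h, and its call was lost with the block. Of the genes called lower at 48 h that could be tested at both times, 1006 of 1068 (94.2%) had the same sign at 24 h, with a median of −0.77, and 541 were called there too. Of those called higher, 280 of 362 (77.3%) had the same sign at 24 h, with a median of 0.21, and 13 were called. Over all genes, 63% had the same sign at both times, and 858 of 30132 in the fit were called at 24 h in either direction.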

How the data were processed

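Total RNA of LNCaP cells was hybridised to 1-colour Agilent arrays. The authors deposited the scanner files, whose processed signals are linear intensities after the scanner's background handling, and a table of normalized log2 values, made with R 3.4.3 and limma 3.34.8 per the labels. Probes that map to several places of the genome were discarded by the authors, a step not repeated here. Per the study's methods each group had 4 biological replicates. The submitters' notes name hg38.

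Here, with R 4.3.3 and limma 3.58.1, log2 processed intensities of the 11 arrays of 48 h were quantile-normalized, flagged spots were left out and replicate spots averaged. Probes above the mean plus 3 SD of 308 negative-control spots on at least 3 arrays, whose interquartile range reached 0.5, were kept, and the brightest probe stood for a gene. The fit of all siRNA groups had slide as an additive term. Genes were called at an adjusted p under 0.01 and an absolute log2 change of at least 0.5. Lists were counted in the same fit without the 2 filters. Of 58201 probes, 31104 (53.4%) were named through RefSeq accessions (GRCh38.p14 table). Array number and signal over background limit the precision.

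Named were the TAPIR probes, the 12 RefSeq-named genes of largest called change each way with 1 sign on both slides, up to 4 called members of each list and direction (or the 2 of largest test statistic), genes the study names, and the 5 of largest change called between siRNAs and between times. A few others are named as examples, as uncalled members or because they kept a call under a block, and were chosen after their values were seen. Members and lists were chosen with earlier results of these data known. The test of 48 h against 24 h normalized 23 arrays together. Deviations of arrays with the same replicate number correlated at 0.208, 0.234, 0.262 and 0.203, and at 0.0226 to 0.0285 once slide was removed, so the numbers were treated as pairing through the shared slide. For the normexp alternative the median signal replaced the mean signal. Only quantile normalization and the limma fit of si-A1 against si-SCRL were tested on simulated data, without the filters. There, 52.5% of log2 changes of −1 and 40% of changes of 1 among brighter genes were called. A gene that did not pass the test may therefore still have changed by that much. Results of some genes are not reported here.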

Additional observations from a re-analysis of the deposited data

Results flagged for a closer look

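Among the groups of 4 arrays of the named genes, 11 of 218 had an array that stood apart from its group by Dixon's test, and chance flags about 1 in 20 groups. In si-SCRL these were FKBP5 on replicate 1 (7.69, with the others at 8.23 to 8.32), BIRC5 on replicate 4 (10.1, others 9.43 to 9.52), CDC25C on replicate 4 (5.77, others 5.34 to 5.41), SYP on replicate 3 (4.47, others 3.62 to 3.74) and CHGA, a chromogranin near background, on replicate 1 (2.07, others 1.08 to 1.13). In si-A1 they were SMS on replicate 4 (9.62, others 9.3 to 9.35), CDCA2 on replicate 3 (2.45, others 3.54 to 3.67), CCNB2 on replicate 3 (3.36, others 3.91 to 3.99), FANCI on replicate 2 (5.9, others 5.46 to 5.51), CD14 on replicate 1 (9.57, others 9.51 to 9.52) and RB1 on replicate 1 (1.66, others 1.35 to 1.4).

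The si-A1 effect differed between 48 h and 24 h by the limma test of the difference for 9 named genes. The change was −2.45 for DLGAP5, −2.38 for CDKN3, −2.31 for KIF20A, −1.81 for AURKA, −1.5 for FOXM1 and −1.46 for CCNA2, where the decrease was larger at 48 h. It was 1.32 for CDKN1A and 2.4 for LRRN1, where the increase was larger at 48 h, and 2.84 for ITGAL, whose effect had opposite signs at the 2 times. ITGAL was not well above background in either group at 48 h, so its change of sign is uncertain. Time and array version cannot be told apart in these values.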

How the results depend on the processing

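Counts are given as genes called higher with si-A1, called lower, called in the fit without filters, called between si-A2 and si-A1, and called for a change between times, which were 438, 1101, 1936, 282 and 54. Every named called gene not mentioned here kept its direction in the alternatives that gave it a value. With the replicate block, which pairs arrays by number, they were 145, 703, 1132, 27 and 34. Without the slide term they were 68, 523, 1146, 49 and 26. With slide as a random block 190 genes were called higher. With normexp 691 were called higher, 575 between siRNAs and 154 between times. With only the compared groups in the fit 0 were called between siRNAs (3370 at an unadjusted limma p under 0.05) and 11 between times. Without the filter on spread 814 were called higher and 506 between siRNAs, and with the scanner's background rating as the filter and none on spread 1383, 1669, 924 (siRNAs) and 93 (times). At an absolute log2 change of at least 1 they were 197, 722 and 787, at an adjusted p under 0.05 1919, 1774, 3928, 1196 and 227, and with an intensity trend in the variance 1592 were called higher, 1514 lower, 1111 between siRNAs and 94 between times. Each array left out in turn gave 100 to 470 higher, 650 to 1030 lower, 994 to 1920 without filters, 0 to 209 between siRNAs and 8 to 77 between times. Leaving out any si-SCRL or si-A1 array of 48 h moved the count of genes called higher by over 1.5 times, to 149, 166, 235 and 121 without si-SCRL replicates 1 to 4 and 113, 100, 131 and 140 without those of si-A1. The cause was not tested.

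Of 109 named genes, 23 lost the call of si-A1 against si-SCRL in at least 1 of 11 fits with an array left out. Among these were MKI67, DDIT3, SCG2 and MCOLN1 (10 fits each), TRIAP1, STAT2 and FDFT1 (9 each), TUBB3, ENO1 and CFAP300 (8 each), DNAJA1 and SLC30A10 (7 each), TRPM8, GLA, BRIP1 and MT1G (6 each), HSPH1 (5), ANKRD37 and KIF23 (4 each), and NDUFS3 (2). Among calls also lost were those of ANKRD37, BRIP1, RB1, SPATA18 and TNFRSF10A with normexp, of KIF23, ACSL3, KLK2, ANKRD37 and TNFRSF10A without the slide term, and of FKBP5, CENPN, KLK2 and MT1E with the median over probes. The change between times lost its call for LRRN1 with normexp and for LRRN1, DLGAP5, CDKN3 and ITGAL without the si-A2 arrays.

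Probe A_19_P00318461 of TAPIR-2 ranged from −0.0612 to 0.480 with single arrays left out, and turned to −0.0315 and −0.0612 without si-A1 replicates 1 and 2 and to −0.027 without si-SCRL replicate 3. Probe A_22_P00019831 ranged from −1.04 to −0.525. CCNB1 turned to −0.960 with the median over probes, FAM107A to 0.517 (si-A1 minus si-SCRL) and −0.455 (si-A2 minus si-A1) under both other filters, which admit another probe, and, of genes not called, PDGFRB (−0.304 to 0.0462) and CHGA (−0.356 to 0.0179) had the second value without si-SCRL replicate 1 in ranges over single arrays left out. Signal over background limits the fold of the 132 genes at background in one group.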
